A study of Homo sapiens with 6 samples.

Results

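The genes described here are 9 members of the MHC class I antigen presentation pathway, HLA-B, HLA-C, HLA-E, HLA-F, B2M, TAP1, TAP2, PSMB8 and PSMB9, taken by name from the 34957 gene identifiers in the expression tables. All 9 had an identifier there. The rule that picks them uses no measured value, but earlier results of these data were known when the genes were chosen. MHC class I molecules carry peptides from a cell's own proteins to the surface, where CD8+ T cells and natural killer cells read them. The heavy chains (here HLA-B, HLA-C, HLA-E and HLA-F) pair with the invariant light chain B2M. Peptides are cut by the proteasome, in which the interferon-inducible subunits PSMB8 and PSMB9 take the place of constitutive catalytic subunits, and TAP1 and TAP2 together form the transporter that moves peptides into the endoplasmic reticulum. Interferons raise most of these genes, in part through IRF factors and the class I transactivator NLRC5.

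The cells were A549, a human lung adenocarcinoma line, transfected with siRNA by Lipofectamine 3000 and harvested 48 h later. There were 6 RNA-seq libraries in 3 groups of 2: a negative control siRNA (si-ctrl, replicates 1 and 2), a first siRNA against the lncRNA PLANE (si-PLANE.1, replicates 1 and 2) and a second siRNA against it (si-PLANE.2, numbered 3 and 4 in the labels). All were the same line in the same medium, and no interferon or other agent is named in the labels. The labels do not say what a shared replicate number stands for, nor that the libraries came from separate cultures, so p-values measure only the spread between these libraries. The level of PLANE itself was not analysed here.

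The libraries held between 10572151 and 20778431 expected counts. Of 8 genes that mark A549 cells, at least 7 were above 1 FPKM in every library. CDKN2A and CDKN2B, which A549 cells lack, were at 0.44 FPKM or less, and the sum of 10 leukocyte markers lay between 5.42 and 10.44 FPKM, with PTPRC (CD45) at 0.02 or less, CD3E and CD3D at 0 throughout and CD14 as the highest. The si-PLANE.2 libraries stood apart: over the 8 of 14 listed histone genes without a poly(A) tail that matched an identifier, the median was 0.16 and 0.25 FPKM there and between 142 and 281 in the remaining 4. Both poly(A) selection and an rRNA removal kit appear in the study's methods, with neither assigned to a library, so for si-PLANE.2 library preparation and siRNA cannot be told apart.

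The members sit at 2 places in the genome (GRCh37, the build named in the labels as hg19). B2M lies on chr15:45003556-45011049. The other 8 lie in the MHC region of chromosome 6, with HLA-F at chr6:29690552-29706305, HLA-E at chr6:30457286-30461971, HLA-C at chr6:31236526-31239907 and HLA-B at chr6:31321649-31334844. TAP2 (chr6:32789610-32806516), PSMB8 (chr6:32808494-32812456), TAP1 (chr6:32812986-32821593) and PSMB9 (chr6:32811913-32827628) share a stretch of 38019 bases. In the GENCODE annotation the PSMB9 gene, on the plus strand, overlaps all 8608 bases of TAP1 and 544 bases of PSMB8, both on the minus strand, and TAP2 lies wholly within a second protein-coding gene model on its own strand. The sources do not say whether counting used strand, so reads in these overlaps cannot be told apart by strand. The counts may rest on another annotation, since some transcripts of the members are not in this GENCODE version.

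B2M was by far the most abundant member. Its gene total in FPKM was 2818.11 and 917.24 in si-ctrl replicates 1 and 2, 4149.92 and 834.68 in si-PLANE.1 replicates 1 and 2, and 1093.50 and 1026.22 in si-PLANE.2 replicates 3 and 4. FPKM are fragments scaled to transcript length and to the size of the library. A gene total here is the sum over its transcripts, in which short transcripts weigh more, so levels of different genes compare only roughly. The replicate 1 libraries of si-ctrl and si-PLANE.1 stood above the other 4, which lay close together. In rank, B2M was between the 12th and the 116th most abundant of all gene identifiers, and it held between 98.09% and 99.26% of the summed FPKM of the 9 members. That share is of FPKM under the gene identifiers and not of counts. In si-PLANE.1 replicate 2, B2M had 3269.98 expected counts and HLA-E 198.93, or 592.33 with the unlabelled transcripts described below. In bulk RNA, a lower level can mean fewer cells with the transcript or less RNA per cell, and these cannot be told apart.

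Among the heavy chains, HLA-E, which presents leader peptides of other class I chains to natural killer cell receptors, was the most abundant. It had an FPKM of 9.48 and 7.63 in si-ctrl, 13.41 and 8.32 in si-PLANE.1 and 7.69 and 7.95 in si-PLANE.2. The highest value was si-PLANE.1 replicate 1, and the range of every group overlapped that of si-ctrl. The classical heavy chains, which present peptides to CD8+ T cells, were near the limit of detection under their identifiers: HLA-C had 1.13 and 0.54 FPKM in si-ctrl, 1.02 and 0.90 in si-PLANE.1 and 0.55 and 0.31 in si-PLANE.2.

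HLA-B had 0.41 and 0 FPKM in si-ctrl, 1.02 and 0.21 in si-PLANE.1 and 0.39 and 0.36 in si-PLANE.2. Those values rested on at most 10 expected counts per library for HLA-B and at most 10.04 for HLA-C. HLA-F, a further non-classical heavy chain, had an FPKM of 1.84 and 0.41 in si-ctrl, 1.06 and 0.67 in si-PLANE.1 and 0.17 and 0.72 in si-PLANE.2, from 1.85 to 18.12 counts. For all 3 genes both siRNA groups overlapped si-ctrl in FPKM, and counts this low limit which changes were detectable. The FPKM of the 2 siRNA groups did not overlap for HLA-C, but its counts fell on transcripts of different lengths there. HLA-C was not called between the 2 siRNAs (edgeR), where 64.5% of all genes were. Heavy chain genes resemble each other, so reads may also have been split among them and related genes, and these levels are uncertain.

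TAP1 had an FPKM of 7.73 and 2.97 in si-ctrl, 6.99 and 4.58 in si-PLANE.1 and 4.94 and 3.09 in si-PLANE.2. The replicate 1 libraries were again the highest in both groups. TAP2, its partner in the transporter, was listed at 0 in 2 libraries (si-ctrl replicate 1 and si-PLANE.1 replicate 2), had 23.03 counts (0.72 FPKM) in si-ctrl replicate 2, and never exceeded 3.68 counts in the rest. Its 0.75 FPKM in si-PLANE.1 replicate 1 came from 0.30 counts on a transcript of 274 bases, so for this gene FPKM says little.

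PSMB9, the interferon-inducible subunit that replaces PSMB6, had an FPKM of 5.28 and 0.82 in si-ctrl, 5.92 and 1.35 in si-PLANE.1 and 2.47 and 2.09 in si-PLANE.2. The replicate 1 libraries were the 2 highest, the si-PLANE.2 libraries lay in between and the replicate 2 libraries were the 2 lowest. PSMB8, which replaces PSMB5, followed the same order at a lower level, with 0.85 and 0.25 FPKM in si-ctrl, 0.76 and 0.26 in si-PLANE.1 and 0.43 and 0.46 in si-PLANE.2, from 3.03 to 12.30 counts. By level the order was B2M, then HLA-E, then TAP1, then PSMB9 in all 6 libraries, and the ranges over libraries of HLA-E and TAP1, and of TAP1 and PSMB9, overlapped.

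**Figure D1:**
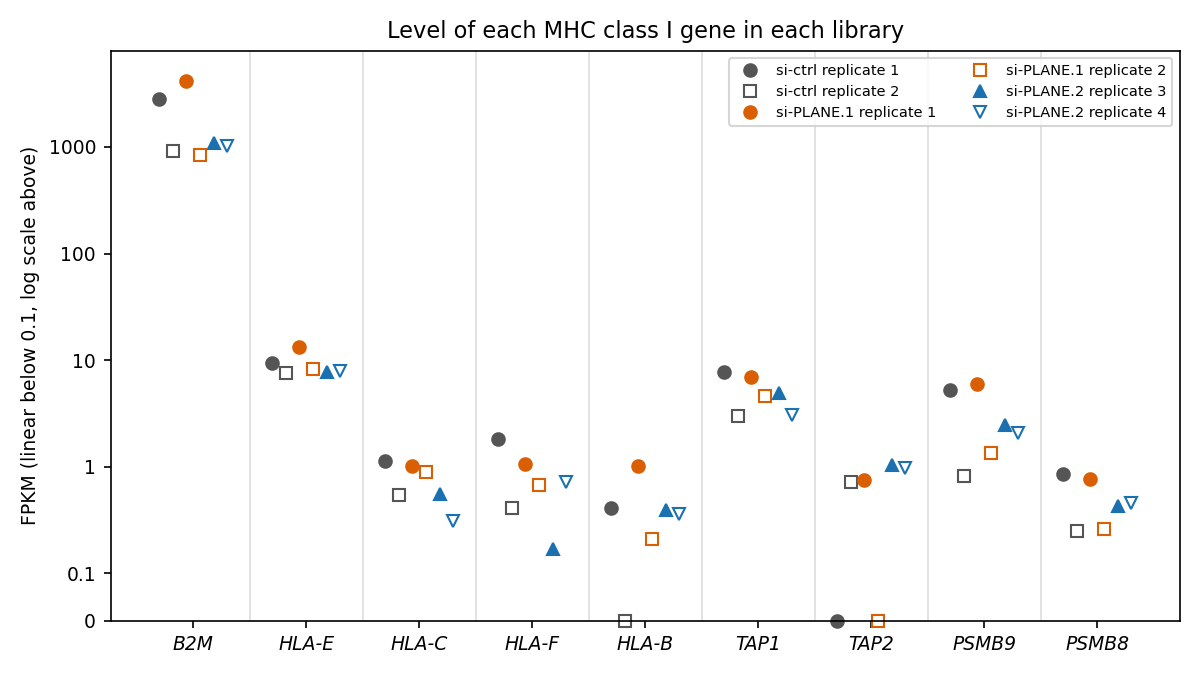
FPKM of each of the 9 genes (x axis) in each of the 6 libraries (points; y axis in FPKM, linear below 0.1 and logarithmic above). The replicate 1 libraries of si-ctrl (filled grey circles) and si-PLANE.1 (filled orange circles) are the 2 highest for B2M, HLA-E, TAP1, PSMB9 and PSMB8, and the blue si-PLANE.2 triangles lie close together for B2M and PSMB9.

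For 5 of the members, all in the MHC region, the totals under the gene identifiers may hold only part of the signal. The tables list 16723 transcripts without a gene identifier, and some of these have exactly the same length and the same expected count in all 6 libraries as a labelled transcript of a member. The match rests on equal length and equal counts alone, and which genes the unlabelled transcripts belong to was not looked up. There were 5 such transcripts for TAP1, 2 for HLA-E, 2 for TAP2, 11 for PSMB8, 4 for PSMB9 and none for HLA-B, HLA-C, HLA-F and B2M. With them added, PSMB9 had an FPKM of 26.40 and 4.10 in si-ctrl, 29.56 and 6.75 in si-PLANE.1 and 12.19 and 10.09 in si-PLANE.2, which left the order of its libraries as it was. TAP1 became 19.88 and 7.27, 23.94 and 7.63, and 19.89 and 18.24 FPKM in the same order, so that the si-PLANE.2 libraries then lay beside the replicate 1 libraries and PSMB9 stood above TAP1 in both replicate 1 libraries. HLA-E came to between 22.19 and 39.97 FPKM and PSMB8 to between 1.69 and 5.47 FPKM. Other unlabelled transcripts may hold further reads of these genes and were not used here.

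**Figure D2:**
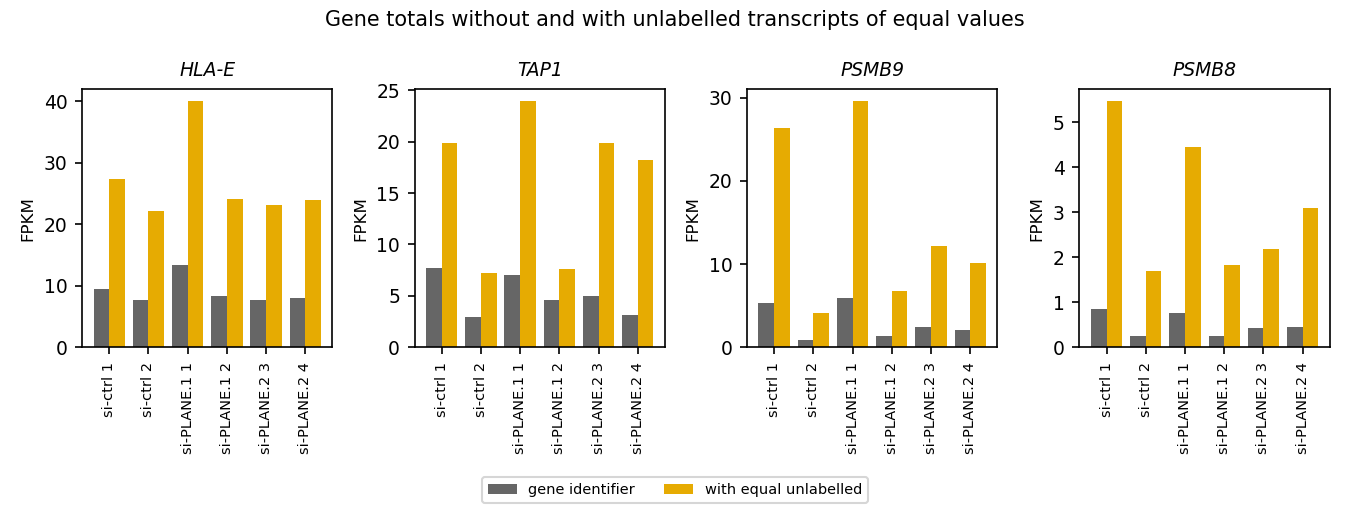
FPKM (y axis) of HLA-E, TAP1, PSMB9 and PSMB8 in each library (x axis: group and replicate number), as the total under the gene identifier (grey bars) and with the unlabelled transcripts of equal length and counts added (yellow bars). The added transcripts bring PSMB9 to 26.40 and 29.56 FPKM in the replicate 1 libraries, and the si-PLANE.2 bars of TAP1 to 19.89 and 18.24 FPKM.

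The design asks what transfection with siRNA against PLANE changes in these cells. For the members neither siRNA gave a change beyond the spread between replicates. Between si-PLANE.1 and si-ctrl, none of the 7 members above the minimum level of 0.5 FPKM was called at an adjusted p under 0.05 by the quasi-likelihood test of edgeR, where 0.0344% of all 14529 genes tested were (0.00688% higher and 0.0275% lower), and none had an unadjusted p under 0.05, where 10.4% of all genes did. DESeq2 and limma also called none of the 7, though DESeq2 gave TAP1 and PSMB9 no adjusted p.

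B2M averaged 2492 ± 2344 FPKM (SD, n = 2) in si-PLANE.1 and 1868 ± 1344 FPKM (SD, n = 2) in si-ctrl, a log2 fold change of 0.31 with an SE of 0.70 (edgeR, adjusted p = 0.892). For HLA-E the log2 fold change was 0.28 (SE 0.23), for TAP1 0.04 (SE 0.42) and for PSMB9 0.21 (SE 0.86). For B2M, TAP1 and PSMB9 the standard error was larger than the change. The direction of all 4 turned when si-PLANE.1 replicate 1 was left out, B2M then being at -1.21 and PSMB9 at -1.11, with no call.

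Between si-PLANE.2 and si-ctrl, none of the 7 members tested was called by edgeR, DESeq2 or limma, and none had an unadjusted p under 0.05 in edgeR, where 67.7% of all genes had one. Of the 14166 genes tested 64.1% were called, 31.9% higher and 32.3% lower. B2M averaged 1060 ± 47.6 FPKM (SD, n = 2) in si-PLANE.2, with a log2 fold change of -0.52 (SE 0.42, edgeR, adjusted p = 0.303). HLA-E, TAP1 and PSMB9 were at 0.12 (SE 0.14), 0.01 (SE 0.39) and -0.19 (SE 0.71). The fold changes come from counts with TMM scaling and differ from ratios of mean FPKM. By mean FPKM, HLA-E (8.555 in si-ctrl and 7.82 in si-PLANE.2) and TAP1 (5.35 and 4.015) were lower in si-PLANE.2. With the unlabelled transcripts added TAP1 was at 0.79, without a call (edgeR, adjusted p = 0.0907). Here the outcome rested on which control library was used. Without si-ctrl replicate 1, 4 of 5 members tested were called (3 higher and 1 lower), where 69.8% of all genes were, with B2M at 0.47, TAP1 at 0.81 and PSMB9 at 1.66. Without si-ctrl replicate 2, 3 of 8 were called, all lower, where 68.7% of all genes were called in either direction, with B2M at -1.10 and TAP1 at -0.51.

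The contrast of si-PLANE.2 with si-PLANE.1, which tests whether the 2 siRNAs differ, called 0 of 8 members tested by edgeR, DESeq2 or limma, against 64.5% of 14437 genes (31.1% higher and 33.4% lower). None had an unadjusted p under 0.05 in edgeR, where 68.0% of all genes had one. B2M was at -0.83 (SE 0.65), PSMB9 at -0.40 (SE 0.80), HLA-E at -0.16 (SE 0.21) and TAP1 at -0.03 (SE 0.41). Without si-PLANE.1 replicate 2, B2M (-1.56) and HLA-E (-0.46) were called lower, 2 of 8 members against 58.2% of all genes called in either direction.

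Differences past the threshold lay between the replicate numbers. In both si-ctrl and si-PLANE.1, replicate 2 had less B2M, TAP1 and PSMB9 RNA than replicate 1. B2M was 3.07 times as high in replicate 1 as in replicate 2 of si-ctrl and 4.97 times as high in si-PLANE.1. For PSMB9 these ratios were 6.44 and 4.38, for TAP1 2.60 and 1.53, and for HLA-E 1.24 and 1.61. The si-PLANE.2 libraries, numbered 3 and 4, differed by 1.07 times for B2M and 1.18 times for PSMB9. HLA-E was at 7.69 and 7.95 FPKM in them. TAP1 was at 4.94 and 3.09 FPKM there, a larger ratio than the 1.53 between the si-PLANE.1 replicates. With the unlabelled transcripts added, TAP1 was at 19.89 and 18.24 FPKM in si-PLANE.2 and at 23.94 and 7.63 FPKM in si-PLANE.1.

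In a fit over the 4 libraries with the group as a term, all 7 members tested had a negative log2 fold change and 3 of them were called lower in replicate 2 (edgeR), where 2.92% of all 14529 genes were called lower, 2.68% higher and 5.60% in either direction. At an unadjusted p under 0.05 there were 5 members and 16.9% of all genes. B2M had a log2 fold change of -1.92 (SE 0.13, adjusted p = 7.53e-49), TAP1 of -1.04 (SE 0.20, adjusted p = 1.05e-05) and PSMB9 of -2.31 (SE 0.53, adjusted p = 0.000602), all by edgeR's quasi-likelihood test. HLA-E, at -0.46 (SE 0.16), did not pass (adjusted p = 0.0586, edgeR). Of the 7, PSMB8 was above 0.5 FPKM in the replicate 1 libraries alone, and HLA-B and TAP2 were under the minimum. With no minimum 4 of the 9 were called, 3 lower and 1 higher. HLA-F, with 18.12 and 2.18 counts in si-ctrl and 8.28 and 1.85 in si-PLANE.1, did not pass, and neither did PSMB8 and HLA-C.

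These p-values rest on little replication. The fit left 1 residual degree of freedom and edgeR took each gene's spread from the trend over all genes. With DESeq2, B2M alone was called (adjusted p = 4.65e-07), while TAP1 had an adjusted p of 0.148 and PSMB9 of 0.304. Of all 14529 genes DESeq2 called 233, and limma on log2(FPKM + 1) called 46. With limma on log2(FPKM + 1) none was called, B2M being at an adjusted p of 0.051, PSMB9 at 0.119 and TAP1 at 0.397. With the unlabelled transcripts added, TAP1 was at -1.59, and HLA-E (-0.47, adjusted p = 0.00548) and PSMB8 (adjusted p = 0.00303) were also called lower by edgeR. The added counts repeat those of a labelled transcript in every library. They bring no separate measurement, and larger counts alone can lower a p-value. In that fit TAP2 was called higher, on 69.09 counts in si-ctrl replicate 2 against 0.30 or fewer in the other 3 libraries. The protein-coding gene model on the same strand that covers all of TAP2 (ENSG00000250264) had an FPKM of 0.84 and 0 in si-ctrl and 1.11 and 0.47 in si-PLANE.1, so it was at 0 in the library that held the TAP2 counts, and how reads were assigned between them was not tested.

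**Figure D3:**
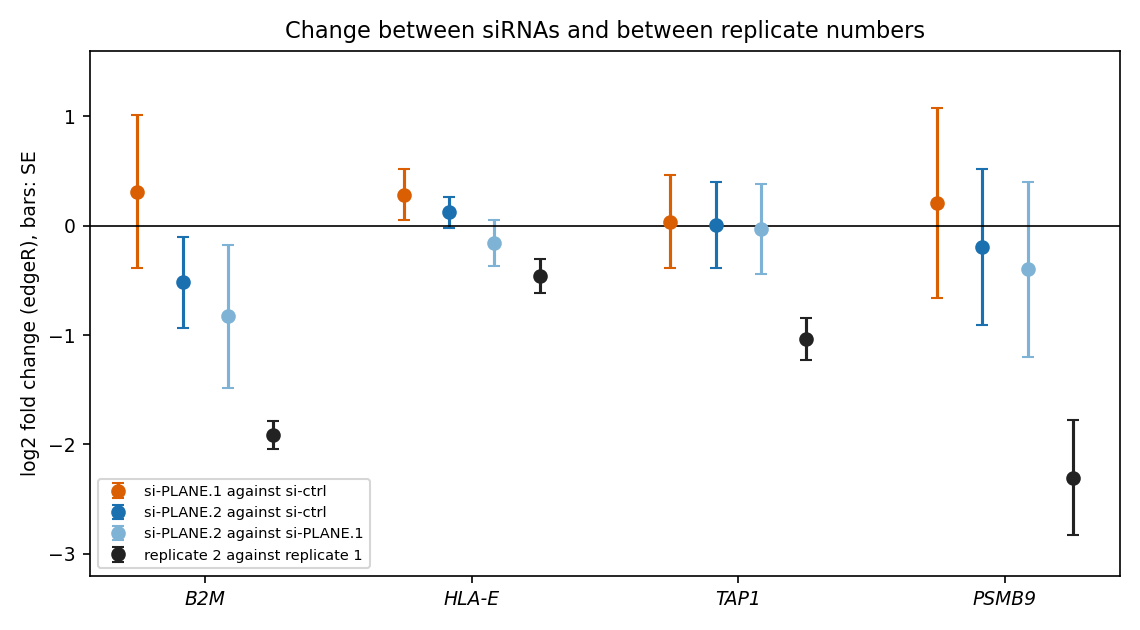
Log2 fold change (y axis, edgeR, bars are standard errors) of B2M, HLA-E, TAP1 and PSMB9 (x axis) in the 3 siRNA comparisons (orange and blues) and between replicate 2 and replicate 1 of si-ctrl and si-PLANE.1 (black). The black points are the lowest for each gene, at -1.92, -0.46, -1.04 and -2.31 (B2M, HLA-E, TAP1 and PSMB9).

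The promoters shown are those of the 3 genes that edgeR called lower in replicate 2. The windows are the 250 bases before the annotated start, from RefSeq on GRCh38.p14 (for TAP1 the first of 2 listed starts), where 8 of the 9 members matched (HLA-E did not). Each is written 5′ to 3′ in the direction of its gene, and capitals mark matches on either strand to an interferon response element (GAAA, any 2 bases, GAAA), an NF-kB motif (GGGA, any base, T, any 2 bases, CC) or a CCAAT box (CCAAT). The windows are chr15:44711267-44711516 for B2M on the plus strand, chr6:32853705-32853954 for TAP1 on the minus strand and chr6:32853942-32854191 for PSMB9 on the plus strand.
B2M: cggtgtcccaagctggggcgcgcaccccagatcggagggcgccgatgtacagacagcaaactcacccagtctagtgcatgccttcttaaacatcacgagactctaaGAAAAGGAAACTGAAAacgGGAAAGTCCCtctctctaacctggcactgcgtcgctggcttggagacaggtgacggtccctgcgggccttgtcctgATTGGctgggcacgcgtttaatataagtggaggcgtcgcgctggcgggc
TAP1: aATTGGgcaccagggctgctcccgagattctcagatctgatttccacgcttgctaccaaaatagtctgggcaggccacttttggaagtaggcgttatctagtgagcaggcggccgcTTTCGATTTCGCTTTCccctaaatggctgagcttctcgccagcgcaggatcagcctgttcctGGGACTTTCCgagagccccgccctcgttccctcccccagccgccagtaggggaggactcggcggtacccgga
PSMB9: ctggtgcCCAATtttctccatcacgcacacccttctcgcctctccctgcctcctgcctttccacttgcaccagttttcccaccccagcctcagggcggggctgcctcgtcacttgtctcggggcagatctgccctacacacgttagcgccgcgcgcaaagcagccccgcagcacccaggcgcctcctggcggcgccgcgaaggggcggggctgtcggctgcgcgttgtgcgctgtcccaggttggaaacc
At these RefSeq starts TAP1 and PSMB9 lie 488 bases apart and are read away from each other, so the windows share their outer ends, with the same CCAAT match. The GENCODE gene model of PSMB9 described above begins elsewhere, beyond the far end of TAP1.

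In the B2M window 2 overlapping matches to the interferon response element began 144 and 138 bases before the start, an NF-kB match 125 bases before it and a CCAAT match 49 bases before it. The TAP1 window held 2 overlapping matches to the interferon response element, at 134 and 128 bases, and an NF-kB match at 72 bases. No match to either motif was found in these letters of the PSMB9 window. These TAP1 matches lie between the starts of the 2 genes, in a stretch before PSMB9 that its window of 250 bases does not reach. Of the 8 members with a window, B2M, TAP1, TAP2 and HLA-F held a match to the interferon response element, which 3.02% of all 35116 windows of this length did. NF-kB matches were found for B2M, TAP1, HLA-B and HLA-C, against 4.46% of all windows, and CCAAT boxes stood in 32.0% of all windows. A match is a description of the sequence and not a bound site.

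Between replicates 1 and 2 the transcripts behind the totals moved together for B2M and not for TAP1. Of 11 B2M transcripts with counts, ENST00000561424 (604 bases, annotated as a target of nonsense-mediated decay) held between 65.0% and 88.3% of the gene's FPKM, ENST00000349264 (732 bases, same class) between 7.4% and 21.3% and ENST00000559220 (580 bases, not in the GENCODE version used) between 3.4% and 12.7%. ENST00000561424 had an FPKM of 2348.91 and 809.90 in si-ctrl, 3513.04 and 701.94 in si-PLANE.1 and 710.46 and 673.27 in si-PLANE.2. ENST00000349264 had 297.56 and 68.08, 407.25 and 86.93, and 232.66 and 215.00 FPKM in the same order. Each was lower in both replicate 2 libraries. In si-PLANE.2, ENST00000561424 lay below its level in si-ctrl replicate 2 and near that in si-PLANE.1 replicate 2, while ENST00000349264 lay between its levels in replicates 1 and 2, and ENST00000559220, at 139.34 and 125.72 FPKM, lay near its 150.64 in si-ctrl replicate 1. These transcripts share most of their sequence, so the split among them is an estimate.

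For TAP1, the 11-exon protein-coding ENST00000354258 (2959 bases) had an FPKM of 2.43 and 0.86 in si-ctrl, 3.39 and 0.61 in si-PLANE.1 and 2.99 and 3.03 in si-PLANE.2. It was lower in both replicate 2 libraries and as high in si-PLANE.2 as in the replicate 1 libraries. ENST00000425148 (not in the GENCODE version used) was at 5.13 and 2.07, 3.34 and 3.83, and 1.95 and 0 FPKM, and did not separate the replicates in si-PLANE.1. HLA-E and PSMB9 rested almost wholly on a single transcript each, the 8-exon ENST00000376630 (2601 bases) and the 6-exon ENST00000374859 (782 bases).

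The totals of the low members came from different transcripts in different libraries. In the 4 libraries of si-ctrl and si-PLANE.1 the HLA-C counts fell mainly on ENST00000415537 (782 bases), which was at 0 in both si-PLANE.2 libraries, where ENST00000376228 (1536 bases) was at 0.20 and 0.30 FPKM. HLA-B counts fell on ENST00000474381, annotated as a retained intron, in si-ctrl and si-PLANE.1 and in si-PLANE.2 replicate 4, and protein-coding ENST00000412585 appeared in si-PLANE.2 alone, at 0.10 and 0.24 FPKM. ENST00000463574, a retained intron of HLA-B, and ENST00000484378, one of HLA-C, had 0.24 and 0.29 FPKM in si-PLANE.2 replicate 3 and 0 elsewhere, and the HLA-C retained intron ENST00000495835 reached 0.36 FPKM in si-PLANE.1 replicate 1. HLA-F was spread mainly over 7 transcripts, none above 0.64 FPKM in any library (ENST00000414333, ENST00000434407, ENST00000440587, ENST00000444621, ENST00000475996, ENST00000482257 and ENST00000606273). The TAP2 counts of si-ctrl replicate 2 were all on ENST00000374899, and those of the si-PLANE.2 libraries on the retained introns ENST00000485701 (0.81 and 0.78 FPKM) and ENST00000464100 (0.22 and 0.20 FPKM). The PSMB8 counts fell mainly on the protein-coding ENST00000374881 and ENST00000374882.

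The interferon-stimulated genes were set beside the members, since interferons raise MHC class I genes. This list was chosen with earlier results of these data known, so its counts are a description. Of 20 listed and tested, all 20 were called lower in replicate 2 by edgeR, against 2.92% of all genes, with a median log2 fold change of -4.48 (0.002 over all genes). Among them MX1, OAS2, IFI44, IFI44L and BST2 were under 0.5 FPKM in both replicate 2 libraries. Those genes passed the minimum only through the replicate 1 libraries, so their part of the count is no test. The summed FPKM of the 20 was 1397.61 and 113.38 in si-ctrl replicates 1 and 2, 2165.04 and 125.32 in si-PLANE.1 and 371.69 and 295.61 in si-PLANE.2. The 3 ranges overlapped. DESeq2 called 19 of the 20 lower and limma on log2(FPKM + 1) 15 of them, against 233 and 46 of all 14529 genes in either direction.

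IFI6, an antiviral protein of the endoplasmic reticulum, had an FPKM of 426.25 and 8.83 in si-ctrl and 707.73 and 10.77 in si-PLANE.1, a log2 fold change of -5.75. OAS2, an enzyme that activates RNase L, went from 35.66 to 0.27 and from 61.75 to 0.16 FPKM (-7.21), and ISG15, a ubiquitin-like modifier, from 124.67 to 1.22 and from 228.23 to 2.27 FPKM (-6.59). Between si-PLANE.1 and si-ctrl none of the 20 was called, with a median of 0.61. Between si-PLANE.2 and si-ctrl 7 of the 20 were called (1 higher and 6 lower), with a median of -1.46, where 64.1% of all genes were called. The spread between the si-ctrl libraries enters that test, and no difference between these shares was tested.

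Of 22 regulators and interferon receptors, 4 were called lower in replicate 2 and none higher, against 2.92% and 2.68% of all genes. Among them were NLRC5, the transactivator of MHC class I genes (8.04 and 4.47 FPKM in si-ctrl, 17.65 and 6.87 in si-PLANE.1, log2 fold change -1.57), and STAT2 (-1.22) and IRF9 (-1.33), which act together downstream of the type I interferon receptor. DESeq2 also called 4 of the 22 lower, and limma called 2, against 233 and 46 of all 14529 genes in either direction. The receptor and kinase genes IFNAR1, IFNAR2, IFNGR1, IFNGR2, JAK1, JAK2 and TYK2 had log2 fold changes between -0.15 and 0.09 in this comparison with no call, and IRF1, which interferon gamma induces, was at -0.32 without a call.

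The 12 genes of peptide loading and trimming had a median log2 fold change of -0.61 between replicate 2 and replicate 1. Of these, 5 were called lower in replicate 2 and none higher, against 2.92% and 2.68% of all genes. They were PSME1 (-0.83) and PSME2 (-1.11), subunits of the proteasome activator that interferon gamma induces, the trimming peptidases ERAP1 (-0.88) and ERAP2 (-0.98), and the tapasin-like editor TAPBPL (-1.42). PSME2 had an FPKM of 140.27 and 54.14 in si-ctrl, 142.33 and 60.51 in si-PLANE.1 and 130.31 and 131.17 in si-PLANE.2. DESeq2 called 3 of the 12 lower and limma 1, against 233 and 46 of all 14529 genes in either direction. None of the 3 constitutive catalytic subunits (PSMB5, PSMB6, PSMB7) and none of the 4 tested ligands of the natural killer receptor NKG2D was called, with medians of -0.07 and -0.29. The 8 MHC class II genes, including CIITA, were all under the minimum level, with none above 0.73 FPKM.

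**Figure D4:**
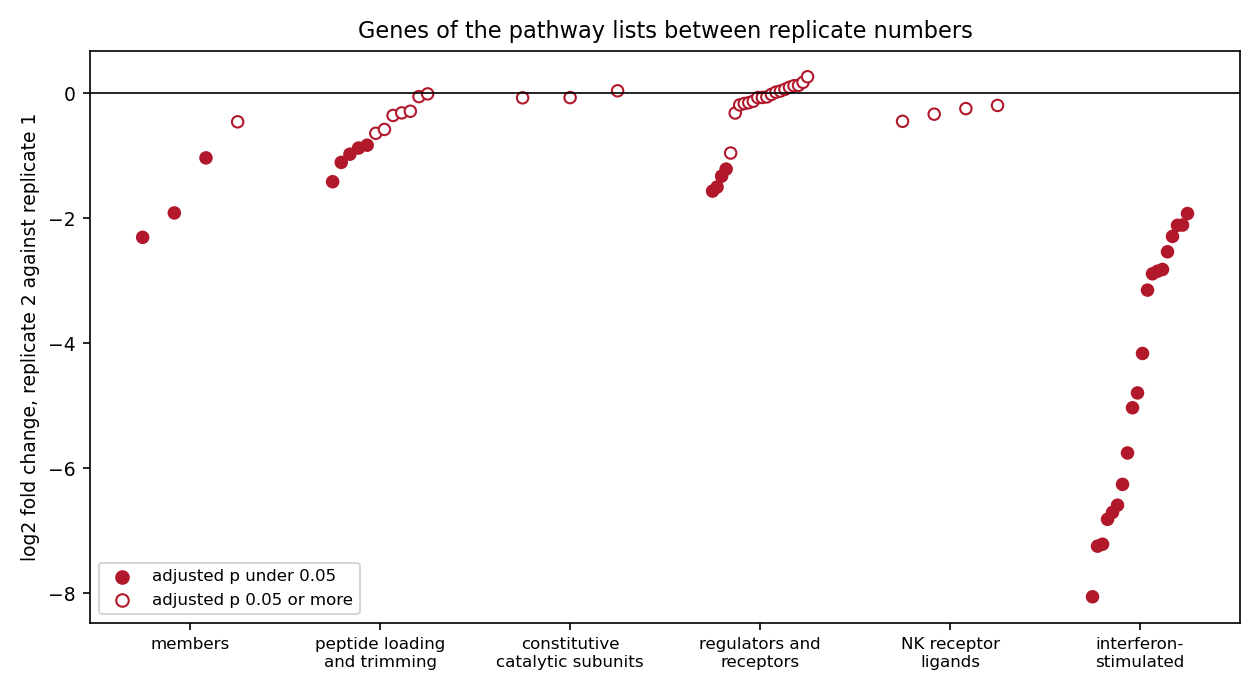
Log2 fold change between replicate 2 and replicate 1 (y axis, edgeR) of each tested gene of the lists (x axis), with filled points for an adjusted p under 0.05. The members shown are the 4 that averaged at least 2 FPKM. All 20 interferon-stimulated genes lie below -1.9, some of which passed the minimum only through the replicate 1 libraries, and the constitutive catalytic subunits lie near 0.

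Under si-PLANE.1 no gene of these lists was called, where 0.0344% of all genes were. Under si-PLANE.2, 8 of the 12 loading and trimming genes (7 higher and 1 lower), 3 of 3 constitutive catalytic subunits (all higher), 9 of 22 regulators and receptors (3 higher and 6 lower) and 1 of 4 NKG2D ligands (lower) were called, against 64.1% of all genes. The lowest p in the first list was that of PSMB10, the interferon-inducible subunit that replaces PSMB7, at 12.96 and 9.76 FPKM in si-ctrl, 17.03 and 11.60 in si-PLANE.1 and 53.93 and 56.31 in si-PLANE.2 (log2 fold change 3.06). POMP, which assembles proteasomes, was at 0.81 and the chaperone CANX at -0.44. The tapasin-like TAPBPL was at 1.33 and tapasin itself, TAPBP, which holds class I molecules at the transporter, at 3.65, from low levels of 0 and 0.27 FPKM in si-ctrl, 1.31 and 0.49 in si-PLANE.1 and 0.81 and 2.14 in si-PLANE.2. PSMB5 was at 1.56, PSMB6 at 1.39 and PSMB7 at 0.83. Among the regulators and receptors the called genes with the lowest p were JAK2 (-1.43), CREB1 (-1.04), IRF2 (-1.02), RFXANK (0.79) and TYK2 (0.49). These fold changes come from summed counts and can differ from FPKM. TYK2 was lower by FPKM, at 36.46 and 34.56 in si-ctrl and 24.26 and 30.70 in si-PLANE.2, so its direction depends on the measure. TAPBPL had 5.81 and 3.48 FPKM in si-ctrl and 6.26 and 6.46 in si-PLANE.2.

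The ratio of each inducible catalytic subunit to the constitutive one it replaces was taken within a library, so that it does not depend on the scaling of the library. PSMB9 was 4.79% and 0.84% of PSMB6 in si-ctrl, 5.86% and 1.41% in si-PLANE.1 and 1.04% and 0.91% in si-PLANE.2. PSMB8 was 1.22% and 0.42% of PSMB5 in si-ctrl, 1.11% and 0.40% in si-PLANE.1 and 0.24% and 0.27% in si-PLANE.2. Both ratios were highest in the replicate 1 libraries. Those of PSMB8 rest on 3.03 to 12.30 PSMB8 counts per library. Its low ratios in si-PLANE.2 go with PSMB5 at 177.41 and 171.47 FPKM there, against 60.20 to 69.66 in si-ctrl and si-PLANE.1. PSMB8 itself was at 0.43 and 0.46 FPKM in si-PLANE.2, above its 0.25 and 0.26 in the replicate 2 libraries. PSMB10 was 15.29% and 12.48% of PSMB7 in si-ctrl, 25.17% and 16.27% in si-PLANE.1 and 42.28% and 45.86% in si-PLANE.2, and was thus highest in si-PLANE.2. With the unlabelled transcripts added, PSMB9 was 23.93% and 4.21%, 29.24% and 7.04%, and 5.14% and 4.40% of PSMB6. PSMB8 was then 7.85% and 2.81%, 6.54% and 2.77%, and 1.23% and 1.81% of PSMB5.

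**Figure D5:**
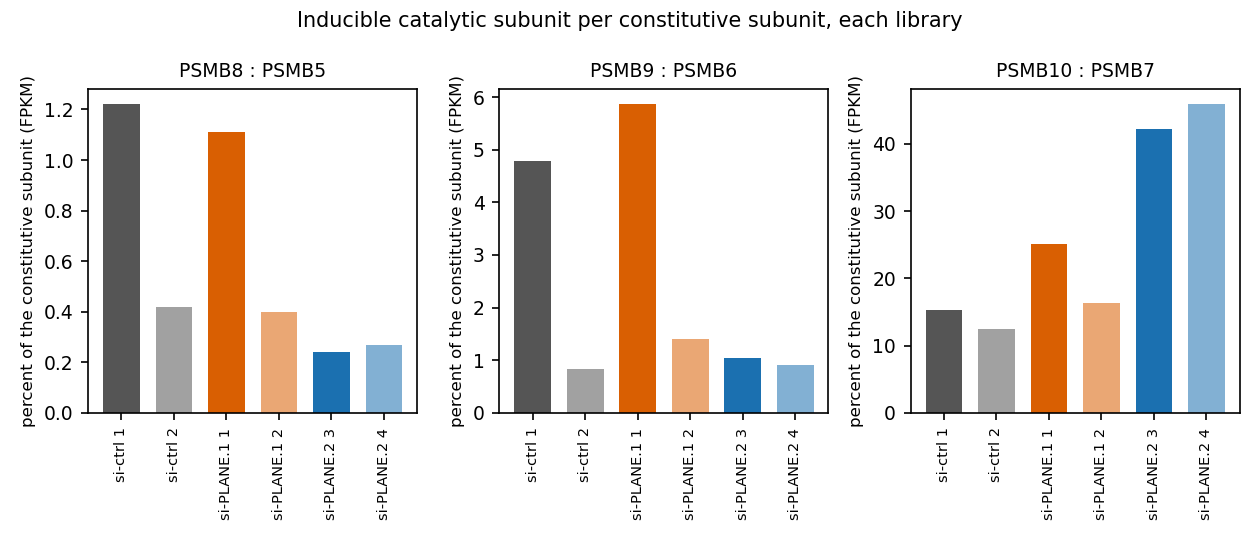
FPKM of PSMB8, PSMB9 and PSMB10 as a percentage of the FPKM of PSMB5, PSMB6 and PSMB7 (y axes, each from 0) in the 6 libraries (bars, grey for si-ctrl, orange for si-PLANE.1, blue for si-PLANE.2, paler for the second library of a group). The ratios of PSMB8 and PSMB9 are highest in the replicate 1 libraries (PSMB9 4.79% and 5.86% of PSMB6) and that of PSMB10 in the si-PLANE.2 libraries (42.28% and 45.86%). The PSMB8 bars rest on 3.03 to 12.30 counts per library.

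The genes whose profile over the 6 libraries was most like the mean profile of the 9 members were found among 13270 other genes averaging at least 1 FPKM, by the mean absolute difference of centred log2(FPKM + 1) values. They were SLC26A9 (0.068), NRDE2 (0.071), SLC25A44 (0.073), SCD (0.085), PIK3R3 (0.088) and MED18 (0.089). The mean profile was 0.36 and 0.55 in the replicate 1 libraries, -0.37 and -0.28 in the replicate 2 libraries and -0.10 and -0.16 in si-PLANE.2. Each of the 9 members had equal weight in it, including the 5 that averaged under 2 FPKM, so it need not follow any single member. In si-ctrl, B2M (2818.11 and 917.24 FPKM) fell further than the mean profile, and HLA-E (9.48 and 7.63 FPKM) fell less. SCD, the stearoyl-CoA desaturase, had an FPKM of 455.75 and 290.66 in si-ctrl, 517.67 and 324.91 in si-PLANE.1 and 300.40 and 350.01 in si-PLANE.2.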

How the data were processed

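Polyadenylated or rRNA-depleted RNA of A549 cells was sequenced as paired reads. Per the labels' processing notes, the authors' tools included Trimmomatic 0.30, HISAT2 2.0.1, HTSeq 0.6.1 and DESeq, with build hg19. What made the estimated counts is not given in the sources used here. For each of 180253 transcripts the authors deposited an expected count, estimated by their own processing and not normalized, and an FPKM value per library, and 33692 of 34957 gene identifiers matched a symbol.

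Transcripts were summed per gene identifier. The sums were made whole numbers for edgeR 4.0.16 (TMM, quasi-likelihood test) in R 4.3.3, fitted over all genes with a mean of at least 0.5 FPKM, with Benjamini-Hochberg adjustment and a threshold of 0.05. The siRNA comparisons used 4 libraries each, the contrast of the siRNAs all 6, and the replicate comparison si-ctrl and si-PLANE.1 with group as a term. Alternatives used DESeq2 1.42.0, limma 3.58.1 (pseudocounts 1 and 0.1), other scalings, minimums and transcripts, and left out single libraries. The scripts were tested on simulated data. Transcripts without an identifier held between 3.03% and 3.62% of the counts. Unlabelled transcripts with the same length and counts (at least 10 in all) as a labelled one were added to its gene in an alternative chosen after seeing the data.

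Members and lists were chosen with earlier results of these data known. All 9 members are given by value in every library, along with the transcripts holding at least 10% of a gene in any group, at most 5 called genes per list and comparison by lowest p, and the 6 genes nearest in profile. The uncalled interferon receptors, kinases and IRF1 of the replicate comparison were named after their values were seen. Fold changes of single members are given only where the mean was at least 2 FPKM, a limit set after the values and the alternatives were seen, and the other 5 members are described by their values and counted among those tested and called. Intervals were not computed, as counts were estimated. The values of 1 listed regulator are not reported here.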

Additional observations from a re-analysis of the deposited data

Results flagged for a closer look

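None of the 8 members tested was called in the contrast of si-PLANE.2 with si-PLANE.1 (edgeR, all 6 libraries). Of 13 genes of the pathway lists named for si-PLANE.2 against si-ctrl, 10 were called. In this contrast 64.5% of all 14437 genes tested were called. The 13 were chosen for their calls with the same si-PLANE.2 libraries, so this count is a description and no test of the lists. The log2 fold changes of si-PLANE.2 against si-PLANE.1 were 2.65 for PSMB10, 1.39 for POMP, 1.66 for PSMB5, 1.57 for PSMB6 and 1.16 for PSMB7. They were -1.39 for JAK2, -1.17 for CREB1, -0.99 for IRF2, 1.10 for RFXANK and 0.59 for TYK2. By FPKM, however, TYK2 was lower in si-PLANE.2, at 24.26 and 30.70, than in si-PLANE.1, at 42.13 and 40.31. Library preparation and siRNA cannot be told apart for these differences. No group had enough libraries for a test of single outlying libraries.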

How the results depend on the processing

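The siRNA comparisons called 0 members with every scaling, minimum and tool tried, and in the single fit of all 6 libraries. The exceptions were the most abundant transcript of each gene, with which 1 member was called between the siRNAs, and single libraries left out: the count ranged from 0 to 4 for si-PLANE.2 against si-ctrl and from 0 to 2 between the siRNAs. The replicate comparison called 3 members, and 1 with DESeq2, 0 with limma on log2(FPKM + 1), 1 with limma on log2(FPKM + 0.1), 1 with the most abundant transcript, 1 without the group term, 4 with no minimum (3 lower and 1 higher) and 6 with unlabelled transcripts added. The number of genes called there was 813 with edgeR, 233 with DESeq2 and 46 or 62 with limma. For si-PLANE.1 against si-ctrl it was 5 with edgeR and 125 with DESeq2. Of 216 values for single genes, 174 kept their direction and their side of the threshold, and all 40 of the replicate comparison stayed negative. These are of the 4 members averaging at least 2 FPKM. A missing adjusted p, as DESeq2 gave for TAP1 and PSMB9 with si-PLANE.1, was counted as no call. For the other 5, whose fold changes are not given, 126 of 147 values kept direction and side, 17 changed direction and 4 gained a call.

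Leaving out single libraries, log2 fold changes against si-ctrl ranged for si-PLANE.1 from -0.090 to 0.58 (HLA-E), -1.21 to 1.33 (B2M), -0.49 to 0.86 (TAP1) and -1.11 to 2.08 (PSMB9), and for si-PLANE.2 from -1.10 to 0.47 (B2M), -0.51 to 0.81 (TAP1) and -0.98 to 1.66 (PSMB9). Between the siRNAs they ranged from -0.46 to 0.21 (HLA-E), -1.56 to 0.69 (B2M), -0.35 to 0.38 (TAP1) and -1.06 to 0.92 (PSMB9). Directions also turned for uncalled values. TAP1 was at -0.072 for si-PLANE.1 with the most abundant transcript. For si-PLANE.2 it was at -0.044 with the minimum of 2 FPKM, -0.010 with upper quartile scaling, -0.26 and -0.29 with limma and -1.67 with the most abundant transcript. HLA-E was at -0.11 and -0.12 with limma, PSMB9 at 0.093 with limma on log2(FPKM + 0.1), and TAP1 at 0.65 between the siRNAs with unlabelled transcripts added. The cause was not tested.

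With a replicate block, si-PLANE.1 against si-ctrl called 0 members and 1225 genes in place of 5. The replicate differences of the 2 groups correlated at r = 0.37 across 14529 genes (genes are not replicates), and with 2 pairs this does not show that the numbers pair the samples. No library could be left out of the replicate comparison, since no degree of freedom remained.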
